A study of Mus musculus with 5 samples.

Results

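The Slc25 genes encode the mitochondrial carrier family, a large family of small-molecule transporters of the inner mitochondrial membrane. Members were taken as every probe set that the array's platform annotation pairs with a single gene symbol starting with Slc25a, apart from Slc25a1 and Slc25a20. This gave 90 probe sets of 45101 on the array and 42 genes of 18193 with a symbol. Membership used names alone and no measured value, although the family was chosen with earlier results of these data known. The gene names are those of the 2016 annotation, and all 42 matched a RefSeq gene of the same symbol by Entrez identifier. A further 1 probe set, shared between Slc25a37 and a predicted gene, was left out.

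RNA had been measured on 5 Affymetrix arrays of splenic CD4 T cells from BALB/c mice, 1 array for each group. The groups were TOFA effector Th1 cells, Rap effector Th1 cells, memory Th1 cells, control effector Th1 cells and naive CD4 T cells. Th1 cells are the interferon gamma producing helper T cells that arise under IL-12. TOFA blocks acetyl-CoA carboxylase, the enzyme that starts fatty acid synthesis. The labels do not spell out Rap, and they give no dose for either agent. All 5 samples carry the same protocol of a Th1 culture lasting 5 days, with IL-2 at 15 ng/ml and IL-12 at 10 ng/ml, although only the effector samples are named as cultured. The labels give no age, genotype, number or pooling of mice, and do not say how naive or memory cells were obtained. The series design text names a characterization of the TOFA-treated cells as its purpose.

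Mitochondrial carriers exchange or import substrates that cannot cross the inner membrane alone. ADP/ATP carriers bring ADP in and ATP out, the phosphate carrier supplies phosphate for ATP synthesis, and ATP-Mg/phosphate carriers set the total nucleotide content of the matrix under the control of calcium. Other members move aspartate, glutamate, ornithine, glutathione, folate, S-adenosylmethionine, nucleotides, coenzyme A and iron. In T cells, activation is accompanied by growth of the mitochondrial compartment and by use of mitochondrial one-carbon and aspartate metabolism for nucleotide synthesis, all of which depend on such transport.

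Values are signals on a linear scale after quantile normalization of the 5 arrays. Signals up to the 40th percentile of the arrays, a signal of 43.4, were treated as a floor, and a pair of arrays both at the floor was not compared. The brightest probe set stood for its gene, and a difference was called from 2-fold. With 1 array a group there is no replicate and no test, so every difference below describes a pair of arrays and not the conditions. The only internal scale of error was the SD between probe sets of the same gene. Over all genes it was 0.37 on the log2 scale for TOFA effector against control effector, 0.38 for Rap effector against control effector, 0.34 for TOFA effector against Rap effector and 0.64 for control effector against naive. It was 0.54 for memory against naive and 0.66 for memory against control effector. In bulk RNA, fewer cells of a type and less RNA per cell cannot be told apart.

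All 6 T cell markers, among them Cd3e and Cd4, were above the floor on all 5 arrays, with sums of 38779 in TOFA, 46024 in Rap, 43160 in memory, 42346 in control effector and 61290 in naive cells. The 2 CD8 genes were above it as well, and summed to 354 in TOFA, 400.3 in Rap, 1072 in memory, 317 in control effector and 703 in naive cells. The summed signal of the 3 cycling markers (Mki67, Aurkb, Top2a) was 36057, 43424 and 39661 in the TOFA, Rap and control effector arrays, and 2042 and 1371 in the memory and naive arrays. The summed markers of B cells, myeloid cells, neutrophils, dendritic cells, red cell precursors and plasma cells were higher on the memory and naive arrays than on the effector arrays. Single genes did not all follow this, such as Csf1r and H2-Ab1 for the naive array. With none of them at the floor there, the 8 B cell markers summed to 49266 in the memory array, 32456 in the naive array and between 1909 and 2554 in the effector arrays. The 7 myeloid markers summed to 54616 in the memory array, 1376 in the naive array and between 210 and 462 in the effector arrays, where between 3 and 6 of the 7 were at the floor. The 4 erythroid markers summed to 2689 in the memory array and 123 in the naive array, and all 4 were at the floor in each effector array. The 5 neutrophil markers summed to 12440 in the memory array, 5458 in the naive array and between 86.8 and 143 in the effector arrays. The 5 dendritic cell markers summed to 35549 in the memory array, 6916 in the naive array and between 852 and 2007 in the effector arrays. The 3 plasma cell markers summed to 9187 in the memory array, 7429 in the naive array and between 591 and 1583 in the effector arrays. Singly, 2 of the 3 were higher and 1 lower in control effector than in naive cells, with log2 differences from -7.35 to 2.29. In memory against control effector cells 2 were higher and 1 lower, from -1.40 to 7.62. The part of these other cell types in the carrier differences that involve the memory or naive array was not tested.

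**Figure D1:**
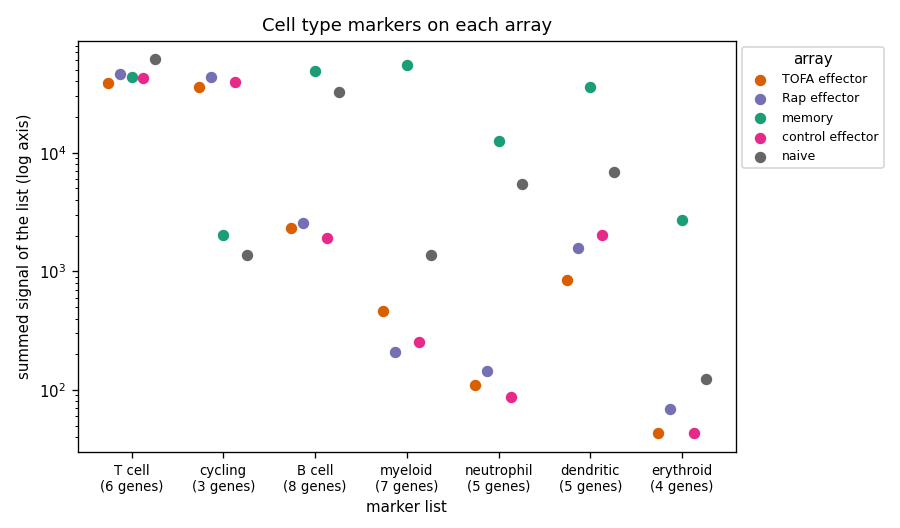
Summed signal of marker lists of T cells, cycling cells and other spleen cell types on each array, on a log axis, with 1 point for each array. The myeloid sum was 54616 in the memory array, against 252 in the control effector array and 1376 in the naive array.

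Most of the carrier family had signals above the floor, as did most genes. Over all genes, 14406 of 18193 were above it on some array. The floor is a percentile of signals and not a test of detection. Of the 42 carrier genes, 33 were above the floor on all 5 arrays and 5 on some of them. The 4 that never passed the floor were Slc25a2, an ornithine carrier, Slc25a31, the testis type ADP/ATP carrier, and Slc25a41 and Slc25a54, from the ATP-Mg/phosphate branch. Slc25a18, a glutamate carrier, passed it on the naive array alone (49.7), and Slc25a48 on the TOFA array alone (48.1). Slc25a13 and Slc25a34 were under it on the memory array and Slc25a35 on the control effector array. A 2-fold difference in some comparison was seen for 14 genes, while 24 others stayed under 2-fold in all 6 comparisons. Of all 14406 genes above the floor on some array, 39.3% reached 2-fold in some comparison, so 14 of 38 is no larger a share. 

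**Figure D2:**
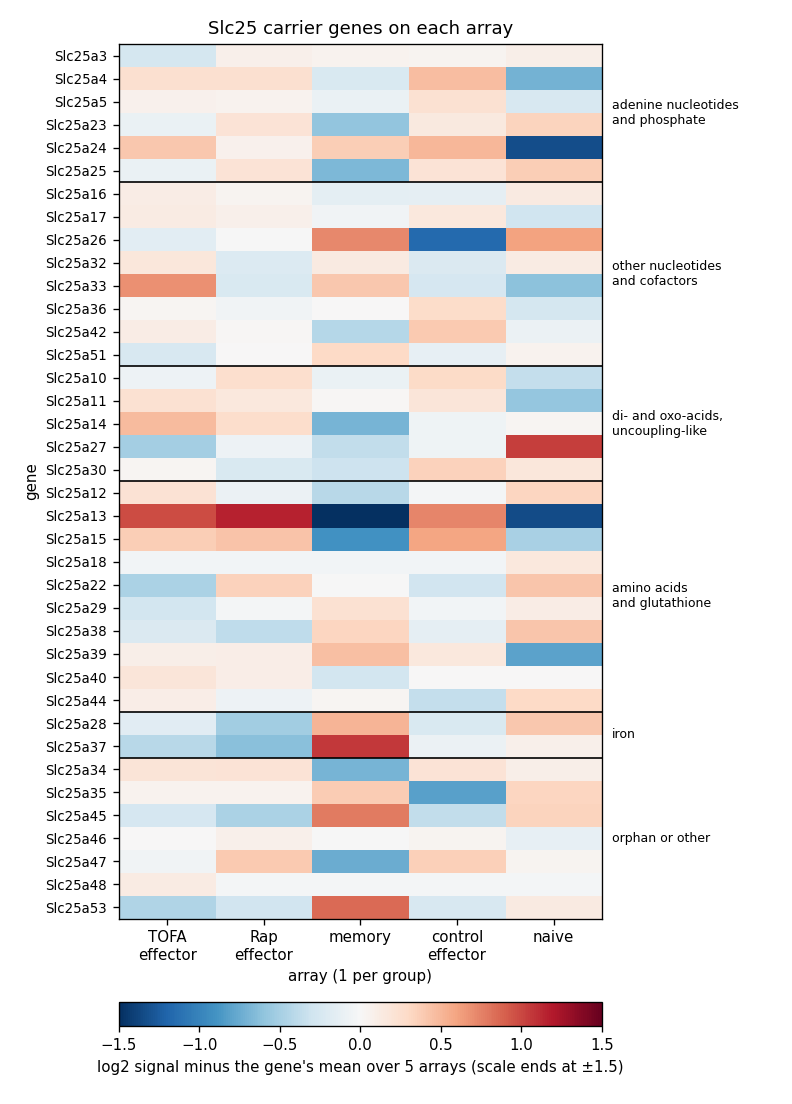
Heat map of the 38 Slc25 genes above the floor on some array (rows, grouped by what their carriers move) on the 5 arrays (columns). Colour is the log2 signal minus the gene's mean over the 5 arrays. Slc25a13 was under the floor of 43.4 in the memory array and at 207 to 279 in the effector arrays, and Slc25a4 was at 5139.97 in the naive array and at 9902 to 11627.5 in the effector arrays.

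TOFA effector cells differed little from control effector cells in this family. Of 37 carriers compared, 1 was at least 2-fold higher, Slc25a26, the carrier of S-adenosylmethionine, and 0 were at least 2-fold lower. Among all 12850 genes compared, 2.47% were 2-fold higher and 2.14% lower, 4.61% in all. The median difference was -0.08 on the log2 scale for the carriers and 0.01 for all genes. Slc25a33, a pyrimidine nucleotide carrier, followed with a 1.91-fold higher signal. In Rap effector cells 1 of 36 carriers, again Slc25a26, was 2-fold higher than in control effector cells and 0 were lower, with 1.79% and 3.91% among all genes, 5.7% in all. These 2 comparisons share the control effector array. Between the TOFA and Rap arrays 0 of 37 carriers reached 2-fold in either direction, with 3.25% higher and 1.35% lower among all genes, 4.59% in all.

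Control effector cells differed from naive cells in 7 of 37 carriers, where 27.2% of all genes did. The aspartate/glutamate carrier Slc25a13, the ATP-Mg/phosphate carrier Slc25a24, the ADP/ATP carrier Slc25a4 and the ornithine carrier Slc25a15 were at least 2-fold higher, as were 15.9% of all genes. Slc25a26, Slc25a27 and Slc25a35 were at least 2-fold lower, as were 11.4% of all genes. The carriers' median was -0.09, against 0.03 over all genes on the log2 scale. The shares of the carriers, 4 of 37 and 3 of 37, were no larger than these backgrounds, so the counts set the family apart from other genes in neither direction.

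Memory cells had 3 of 37 carriers at least 2-fold higher than naive cells (Slc25a24, Slc25a33, Slc25a39) and 2 lower (Slc25a25, Slc25a27), beside 12.3% and 4.13% of all genes (16.4% in all). Against control effector cells, 5 of 36 carriers were higher in memory cells (Slc25a26, Slc25a35, Slc25a37, Slc25a45, Slc25a53) and 3 lower (Slc25a13, Slc25a15, Slc25a47), beside 14.2% and 14.1% (28.3% in all). The memory array also carried the B cell, myeloid and erythroid signals given above, and their part in these differences was not tested.

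**Figure D3:**
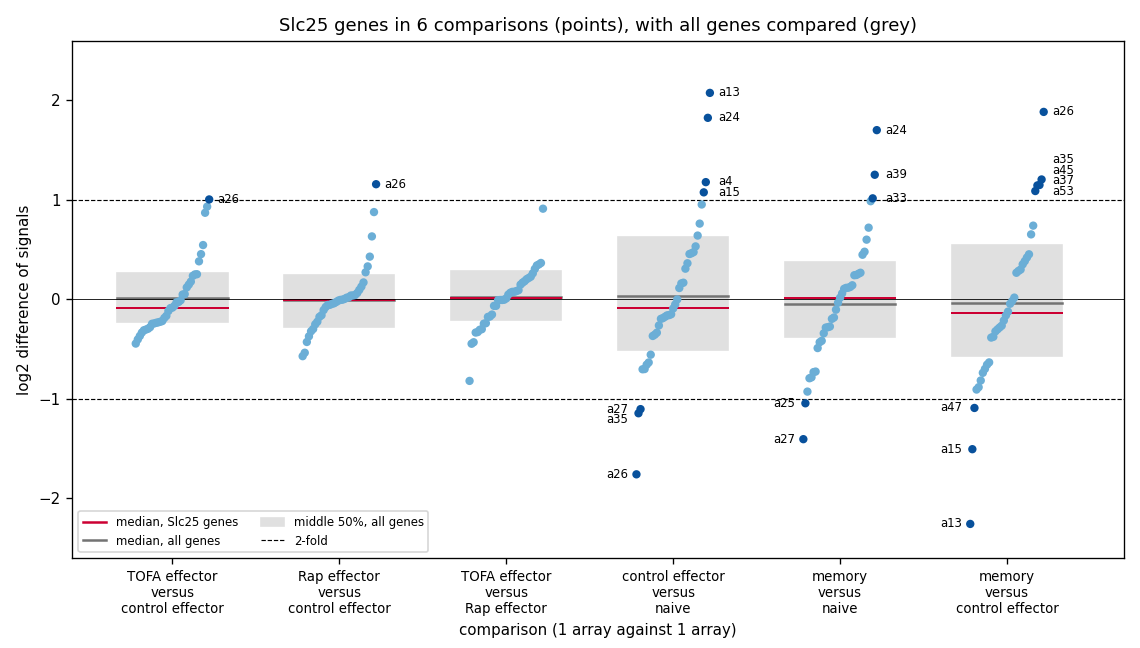
Log2 difference of each Slc25 gene (points, those past 2-fold named) in the 6 comparisons, with dashed lines at 2-fold. Grey boxes hold the middle 50% of all genes compared, and lines mark the medians. The TOFA and Rap comparisons with control effector cells each had 1 gene past 2-fold, Slc25a26, and control effector against naive cells had 7.

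The 3 effector arrays were next set against the memory and naive arrays, whose cells are not named as cultured, a grouping chosen after the values were seen. All 3 effector arrays lay above both other arrays for 10 of 38 carriers, beside 25.3% of all genes, and below both for 9 of 38, beside 21.0%. Both shares were close to those of all genes, so these counts do not set the family apart. The carriers above were Slc25a4, Slc25a5, Slc25a10, Slc25a11, Slc25a13, Slc25a15, Slc25a17, Slc25a34, Slc25a42 and Slc25a46. Those below were Slc25a26, Slc25a28, Slc25a29, Slc25a35, Slc25a37, Slc25a38, Slc25a45, Slc25a51 and Slc25a53. Both iron carriers and the glycine carrier of heme synthesis were among those below. Summed markers of other spleen cell types were higher on the memory and naive arrays, although 3 of the 4 erythroid markers were at the floor in the naive array. The part of such cells in this pattern was not tested. Most gaps were small, and the widest was that of Slc25a13, whose lowest effector signal was 4.21-fold above the highest of the others. It was followed by Slc25a15 with 1.80-fold, and, among those below, by Slc25a26 with 1.52-fold, then Slc25a28 and Slc25a45. The dimmer probe sets of Slc25a15 and Slc25a26 did not keep this separation of the arrays.

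Among the adenine nucleotide and phosphate carriers, 2 of 6 compared were 2-fold higher in control effector cells than in naive cells, and 0 were lower, beside 15.9% and 11.4% of all genes. With 6 genes, such a count does not set the group apart. Slc25a4, the ADP/ATP carrier typical of heart and muscle, had signals of 9902 in TOFA, 9948 in Rap, 7160.3 in memory, 11627.5 in control effector and 5139.97 in naive cells. The 3 effector arrays were close together and lay above both others. Control effector cells were 2.26-fold above naive cells, and this call was kept in 6 of 6 alternative ways of processing the signals. Of its other probe sets, 1 stayed at the floor and the other 2 gave log2 differences of 1.30 and 0.98. Slc25a5, the ADP/ATP carrier typical of dividing cells, had 18967 in TOFA, 18839 in Rap, 17029 in memory, 21286 in control effector and 15441 in naive cells. As for Slc25a4, control effector cells were highest, the other effector arrays came next and naive cells were lowest. Its 8 probe sets differed by 0.46 to 0.99 on the log2 scale between control effector and naive cells, all in the same direction, and whether they also take up RNA of close copies of the gene was not tested.

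Slc25a24, an ATP-Mg/phosphate carrier regulated by calcium, had 3149.8 in TOFA, 2488 in Rap, 3074 in memory, 3349 in control effector and 946 in naive cells. The naive array stood apart from the other 4. The signal was 3.54-fold higher in control effector cells than in naive cells and 3.25-fold higher in memory than in naive cells, and both calls were kept in 6 of 6 alternatives. Its second probe set gave 1.45 and 1.02 on the log2 scale in these comparisons. Its relative Slc25a25 had 114 in TOFA, 141 in Rap, 76.5 in memory, 141 in control effector and 158 in naive cells. It was 2.06-fold lower in memory than in naive cells, a call kept in 3 of 6 alternatives, and Slc25a23, a further relative, was 1.90-fold lower. In memory cells Slc25a24 was thus above the naive array and both relatives were below it. The phosphate carrier Slc25a3 had 14187 in TOFA, 17882 in Rap, 17627 in memory, 17418 in control effector and 18051 in naive cells, so that the TOFA array alone stood below the rest, 1.23-fold below control effector cells. In TOFA against control effector cells all 6 compared genes of this group were below 0, with a median of -0.24 on the log2 scale and none past 2-fold. Of the 16 ATP synthase genes, the enzyme that these carriers supply, 13 were below 0 as well, with a median of -0.18 and 0 past 2-fold. Below 0 in this comparison were also 23 of the 37 carriers and 6248 of all 12850 genes. Both medians were smaller in size than the SD of 0.37 between probe sets of the same gene. That SD is a spread of single probe sets on the same arrays, so it does not give the error of a median over genes.

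Among carriers of other nucleotides and cofactors, Slc25a26 gave the differences that reached 2-fold in the inhibitor comparisons. It imports S-adenosylmethionine, the methyl donor, into mitochondria. Its signal was 186 in TOFA, 206 in Rap, 342 in memory, 92.6 in control effector and 313 in naive cells. On this probe set, of a type that may match several transcripts, the control effector array was the lowest. The inhibitor arrays lay between it and the memory and naive arrays. The signal was 2.01-fold higher in TOFA and 2.23-fold higher in Rap than in control effector cells, 3.69-fold higher in memory than in control effector cells and 3.38-fold lower in control effector than in naive cells. The TOFA call was kept in 1 of 6 alternatives and the Rap call in 2 of 6, while the other calls were kept in 5 and 4 of 6. Its second probe set, with signals between 61.3 and 108, gave 0.64 on the log2 scale for TOFA cells and 0.26 for Rap cells, each against control effector cells, and -0.13 for control effector against naive cells. The 2 probe sets thus agreed in sign on these 3 differences and disagreed on their size. On the second probe set the naive array, at 67.1, lay below the TOFA array, at 95.5, and the Rap array, at 73.2. The order of the arrays given above thus rests on the brightest probe set.

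Slc25a33, an importer of pyrimidine nucleotides, had 466 in TOFA, 248 in Rap, 384 in memory, 244 in control effector and 190 in naive cells. The TOFA array was the highest, and Rap and control effector cells were within 1.01-fold of each other. TOFA cells were 1.91-fold above control effector cells and 1.88-fold above Rap cells, both under 2-fold, and memory cells were 2.02-fold above naive cells, a call kept in 5 of 6 alternatives. It has 1 probe set, so no second measure exists on the array. Slc25a36, the other pyrimidine nucleotide carrier, had 4076 in TOFA, 3869 in Rap, 4022 in memory, 4833 in control effector and 3343 in naive cells, a 1.45-fold difference between control effector and naive cells. Its dimmer probe sets gave 1.27 and 1.28 on the log2 scale there, so the probe set that stood for the gene showed the smallest difference of the 3. The folate and FAD carrier Slc25a32 was 1.30-fold higher in TOFA than in control effector cells, with 692 in TOFA, 537 in Rap, 677 in memory, 531 in control effector and 669.7 in naive cells. A dimmer probe set of Slc25a32, with signals between 188 and 438, gave 0.07 on the log2 scale for TOFA against control effector cells. For memory against naive cells it gave -1.22, where the brightest gave 0.02. Of the 5 mitochondrial folate enzymes, 2 were 2-fold higher in TOFA than in control effector cells, beside 2.47% of all genes, and 0 were lower. These were Aldh1l2, with a log2 difference of 3.17, and Shmt2, with 1.04, while Mthfd2 gave 0.81, Mthfd2l 0.40 and Mthfd1l -0.03. The remaining members, the NAD carrier Slc25a51, the coenzyme A carriers Slc25a16 and Slc25a42 and the peroxisomal carrier Slc25a17, were under 2-fold in all comparisons by their brightest probe sets. The dimmest probe set of Slc25a51 gave -1.30 on the log2 scale for control effector against naive cells. It gave 1.09 for memory against control effector cells. A further one gave 0.37 and 0.04 in these comparisons.

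The amino acid and glutathione carriers included the carrier with the widest range. Slc25a13 exchanges aspartate for glutamate and belongs to the malate-aspartate shuttle, which brings cytosolic reducing power into mitochondria. Its signal was 247 in TOFA, 279 in Rap, 36.0 in memory, 207 in control effector and 49.2 in naive cells. All 3 effector arrays were far above the memory array, which was under the floor, and the naive array, just above it. Control effector cells were 4.21-fold above naive cells, and memory cells were at least 4.78-fold below control effector cells. Its relative Slc25a12, which moves the same substrates, had 2646 in TOFA, 2142 in Rap, 1714 in memory, 2225 in control effector and 2846 in naive cells. It was 1.28-fold lower in control effector than in naive cells, and its other 2 probe sets also gave lower values there, -1.28 and -0.62 on the log2 scale. So the 2 aspartate/glutamate carriers differed with opposite signs between these arrays. For Slc25a12 the difference was under 2-fold on the brightest probe set and past 2-fold on a dimmer one. For memory against naive cells that dimmer probe set gave -1.57, where the brightest gave -0.73. Of the 4 shuttle enzymes, Got1 and Got2, the aspartate aminotransferases, were 2-fold higher in control effector cells than in naive cells, with log2 differences of 1.48 and 1.44, and Mdh1 and Mdh2 were not. The oxoglutarate carrier Slc25a11, the other membrane part of the shuttle, was 1.69-fold higher in control effector cells than in naive cells.

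Slc25a15, which imports ornithine, had 696 in TOFA, 728 in Rap, 286 in memory, 813 in control effector and 386 in naive cells. The effector arrays lay together above both others. Control effector cells were 2.11-fold above naive cells, a call kept in 3 of 6 alternatives, and memory cells were 2.84-fold below control effector cells. A dimmer second probe set had 82.7 in TOFA, 89.4 in Rap, 7.83 in memory, 8.37 in control effector and 78.8 in naive cells. It went the other way between control effector and naive cells, so the direction for this gene rests on its brighter probe set. Slc25a39, needed for mitochondrial import of glutathione, had 4201 in TOFA, 4225 in Rap, 5405 in memory, 4394 in control effector and 2269.9 in naive cells. The naive array alone was low. Memory cells were 2.38-fold above it, a call kept in 4 of 6 alternatives, and control effector cells 1.94-fold. Its dimmer probe sets above the floor on every array gave log2 differences of 0.72, 0.76 and 0.97 for memory against naive cells. For control effector against naive cells the same probe sets gave 1.48, 1.25 and 0.60. Which comparison passed 2-fold for Slc25a39 thus depended on the probe set. Its related carrier Slc25a40 stayed between 1114 and 1533 on the 5 arrays, with no 2-fold difference. By the brightest probe sets, no gene of this group reached 2-fold in TOFA or Rap cells. The largest difference between the TOFA and Rap arrays was then that of the glutamate carrier Slc25a22. It had 153 in TOFA and 269 in Rap cells, 1.77-fold lower in TOFA. A dimmer probe set of Slc25a29 gave 1.23 on the log2 scale for TOFA against control effector cells and 1.13 for TOFA against Rap cells. Its control effector signal was under the floor and its Rap signal, 46.4, just above it. The brightest probe set of Slc25a29 gave -0.24 in both, so its probe sets disagreed in call and direction. For control effector against naive cells the dimmer one gave -1.88 and another -1.96, both with control effector cells under the floor. The brightest gave -0.15 there, and further ones -0.79 and 0.12. The branched-chain amino acid carrier Slc25a44 was under 2-fold throughout, while Bcat1, the cytosolic enzyme acting on its substrates, differed by 4.04 on the log2 scale between control effector and naive cells and by 1.38 between TOFA and control effector cells.

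Promoter windows are shown for the 4 carriers that were 2-fold higher in control effector cells than in naive cells, and for Slc25a33, the carrier closest to 2-fold in TOFA cells after Slc25a26, which had no entry. They are RefSeq windows on GRCm38.p6, from 250 bases before to 50 bases after the annotated start, written 5′ to 3′ on the gene's strand. Capitals mark CACGTG (the E-box, bound by MYC among others), CCGGAAG (an ETS site), GCATGCGC (a core of the NRF1 site) and TGATGNAA (a site bound by ATF4), searched on both strands. Slc25a15 has 2 windows, of which the one with a match is shown.
Slc25a13, chr6:6217124-6217423, minus strand: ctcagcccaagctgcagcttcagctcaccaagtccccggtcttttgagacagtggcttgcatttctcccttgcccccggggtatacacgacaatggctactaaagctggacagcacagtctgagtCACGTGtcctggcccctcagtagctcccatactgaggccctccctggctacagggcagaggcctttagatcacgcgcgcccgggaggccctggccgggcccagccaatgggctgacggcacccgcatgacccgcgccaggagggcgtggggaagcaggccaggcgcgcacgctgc
Slc25a15, chr8:22398228-22398527, minus strand: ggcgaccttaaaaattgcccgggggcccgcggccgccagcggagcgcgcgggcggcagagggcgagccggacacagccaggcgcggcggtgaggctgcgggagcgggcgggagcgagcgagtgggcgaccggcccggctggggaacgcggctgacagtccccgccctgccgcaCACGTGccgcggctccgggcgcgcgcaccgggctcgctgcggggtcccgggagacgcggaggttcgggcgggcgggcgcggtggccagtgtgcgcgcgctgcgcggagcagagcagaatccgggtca
Slc25a24, chr3:109122899-109123198, plus strand: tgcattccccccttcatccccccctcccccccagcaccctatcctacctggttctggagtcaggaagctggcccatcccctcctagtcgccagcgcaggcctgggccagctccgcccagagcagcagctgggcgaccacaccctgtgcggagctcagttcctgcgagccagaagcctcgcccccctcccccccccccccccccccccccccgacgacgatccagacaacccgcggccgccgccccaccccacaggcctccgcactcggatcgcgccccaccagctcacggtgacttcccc
Slc25a4, chr8:46211013-46211312, minus strand: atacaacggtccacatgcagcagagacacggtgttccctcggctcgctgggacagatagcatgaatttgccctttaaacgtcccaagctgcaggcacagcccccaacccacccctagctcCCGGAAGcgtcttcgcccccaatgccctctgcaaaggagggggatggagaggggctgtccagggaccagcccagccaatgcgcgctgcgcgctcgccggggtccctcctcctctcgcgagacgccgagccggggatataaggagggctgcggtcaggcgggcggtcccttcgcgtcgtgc
Slc25a33, chr4:149774218-149774517, minus strand: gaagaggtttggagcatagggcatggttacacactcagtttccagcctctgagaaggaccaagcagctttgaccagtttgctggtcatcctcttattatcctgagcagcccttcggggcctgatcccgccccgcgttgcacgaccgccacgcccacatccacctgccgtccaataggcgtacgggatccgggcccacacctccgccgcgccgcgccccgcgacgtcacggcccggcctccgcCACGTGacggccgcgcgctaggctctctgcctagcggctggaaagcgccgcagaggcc
CACGTG was present in the windows of Slc25a13, Slc25a15 and Slc25a33, and CCGGAAG in that of Slc25a4. Over all 41 windows of the 32 carrier genes with an entry, 7 held CACGTG, 17.1% of them, against 7.15% of 32851 windows of all genes. CCGGAAG was in 6 (14.6%, against 8.86%), GCATGCGC in 2 (4.88%, against 2.71%) and TGATGNAA in 0 (against 3.97%). The carrier windows were richer in G and C than all windows, with a median of 59.7% against 52.7%, and GGGCGG, the GC box, was in 35 of them (85.4%, against 35.7%). A match is a run of letters and was not tied here to binding or to any difference in signal.

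Both carriers of iron had their highest signal in the memory array. Slc25a37, mitoferrin 1, which supplies iron for heme synthesis in red cell precursors, had 492 in TOFA, 427 in Rap, 1369.9 in memory, 619.7 in control effector and 692 in naive cells. The memory array stood alone. It was 2.21-fold above control effector cells, a call kept in 6 of 6 alternatives, and 1.98-fold above naive cells. The erythroid gene Alas2, which starts heme synthesis in red cell precursors, had a signal of 658 in the memory array and 2.05 in the naive array, and Slc4a1, a red cell membrane protein, had 1910.03 and 42.5. The other 2 genes of this list were Epb42, with 88.5 in memory and 29.0 in naive cells, and the globin gene Hba-a1, with 32.6 in memory, under the floor, and 49.1 in naive cells. The part of such cells in the signal of Slc25a37 was not tested. Slc25a28, mitoferrin 2, which is found in most tissues, had 794 in TOFA, 622 in Rap, 1279 in memory, 765 in control effector and 1188 in naive cells. Memory and naive cells both lay above the effector arrays, by 1.67-fold for memory against control effector cells. Slc25a38, which imports glycine for heme synthesis, had 327 in TOFA, 291 in Rap, 474 in memory, 346 in control effector and 509 in naive cells, with memory and naive cells again above the effector arrays. Among 12 heme and iron-sulfur enzymes compared in memory against naive cells, 3 were 2-fold higher (Alas2, Alad, Fech) and 0 were lower, beside 12.3% and 4.13% of all genes.

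Of the dicarboxylate, oxoglutarate and uncoupling-like carriers, 1 reached 2-fold in any comparison, Slc25a27. This uncoupling-like protein had 80.2 in TOFA, 108 in Rap, 88.5 in memory, 109 in control effector and 235 in naive cells. The naive array alone was high. The signal was 2.15-fold lower in control effector than in naive cells and 2.65-fold lower in memory than in naive cells, calls kept in 3 and 4 of the 5 alternatives with a value, and the 3 other probe sets were at the floor on all arrays. The dicarboxylate carrier Slc25a10 was 1.56-fold higher in control effector cells than in naive cells. Slc25a14, another uncoupling-like protein, had 382 in TOFA, 329 in Rap, 169 in memory, 262 in control effector and 279 in naive cells, and was lowest in memory cells. In memory against control effector cells all 5 genes of this group were below 0, with a median of -0.38 on the log2 scale and none past 2-fold. Below 0 in this comparison were also 21 of the 36 carriers and 6851 of all 13239 genes.

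The members with no assigned or less studied substrates held several of the memory differences. Slc25a45 had 611 in TOFA, 522 in Rap, 1247 in memory, 562 in control effector and 914 in naive cells, and was 2.22-fold higher in memory than in control effector cells in the main setting and in 6 of 6 alternatives. Slc25a53 had 164 in TOFA, 185 in Rap, 406 in memory, 191 in control effector and 247 in naive cells. It was 2.13-fold higher in memory than in control effector cells, kept in 4 of 6 alternatives. The memory array was the highest for both genes, but the second probe set of Slc25a53 gave 0.17 on the log2 scale there, and -0.59 against naive cells, where the brighter one gave 0.72. Slc25a35 had 79.3 in TOFA, 79.7 in Rap, 99.96 in memory, 37.1 in control effector and 95.9 in naive cells. Only the control effector array was under the floor, so memory cells were at least 2.30-fold above it, and TOFA and Rap cells at least 1.83-fold and 1.84-fold. Slc25a47 had 104 in TOFA, 142 in Rap, 64.8 in memory, 138 in control effector and 112 in naive cells, and was 2.13-fold lower in memory than in control effector cells, kept in 2 of the 4 alternatives with a value. These last 2 genes had signals under the 60th percentile of 150 on every array. Slc25a46, a protein of the outer membrane that acts in mitochondrial shape, stayed between 2527 and 2899.5 on the 5 arrays.

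Genes that work beside the carriers were compared from 10 lists, with 92 of 98 entries on the array, and the counts for control effector against naive cells stand beside 15.9% of all genes higher and 11.4% lower. Mtch1, Mtch2 and Ucp3, relatives of the family whose symbols do not start with Slc25a, were 2-fold higher in control effector cells than in naive cells, with log2 differences of 1.27, 1.10 and 1.19. Ucp3 had low signals, 101 in control effector cells and 44.3 in naive cells, just above the floor. A further relative, Ucp1, was at the floor on every array and was not compared. Of 12 genes for carrier import into the inner membrane, Tomm40, the pore of the outer membrane, was 2-fold higher there with 1.44, and Timm9, an intermembrane chaperone, was lower with -1.15. Of 16 ATP synthase genes 1, Atpif1, the inhibitor of the enzyme, was 2-fold higher with 2.33. Among 14 regulators of mitochondrial biogenesis compared, 0 were 2-fold higher and 2 were lower, Ppargc1b with -1.66 and Polrmt with -1.32. Of the 13 other inner membrane transporters, 3 were 2-fold higher in control effector cells than in naive cells, among them Sfxn1, a serine transporter, with 1.46 on the log2 scale, and 2 were lower. In memory against naive cells 2 of the 13 were higher and 0 lower, beside 12.3% and 4.13% of all genes. Slc8b1, the mitochondrial sodium/calcium exchanger, gave 2.49 there, with 1244 in memory and 221 in naive cells.

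Probe sets of the same carrier differed in direction in some comparisons. Of the 22 genes with several probe sets, those comparable gave 39 other probe sets in TOFA against control effector cells, and 26 of the 39 had the sign of the brightest one. In Rap against control effector cells 20 of 37 did, and in TOFA against Rap cells 24 of 39. In control effector against naive cells 32 of 41 shared the sign, in memory against naive cells 28 of 40, and in memory against control effector cells 30 of 36. The sign of a small difference thus often depended on the probe set that was read, and most carriers differed little in the inhibitor comparisons.

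**Figure D4:**
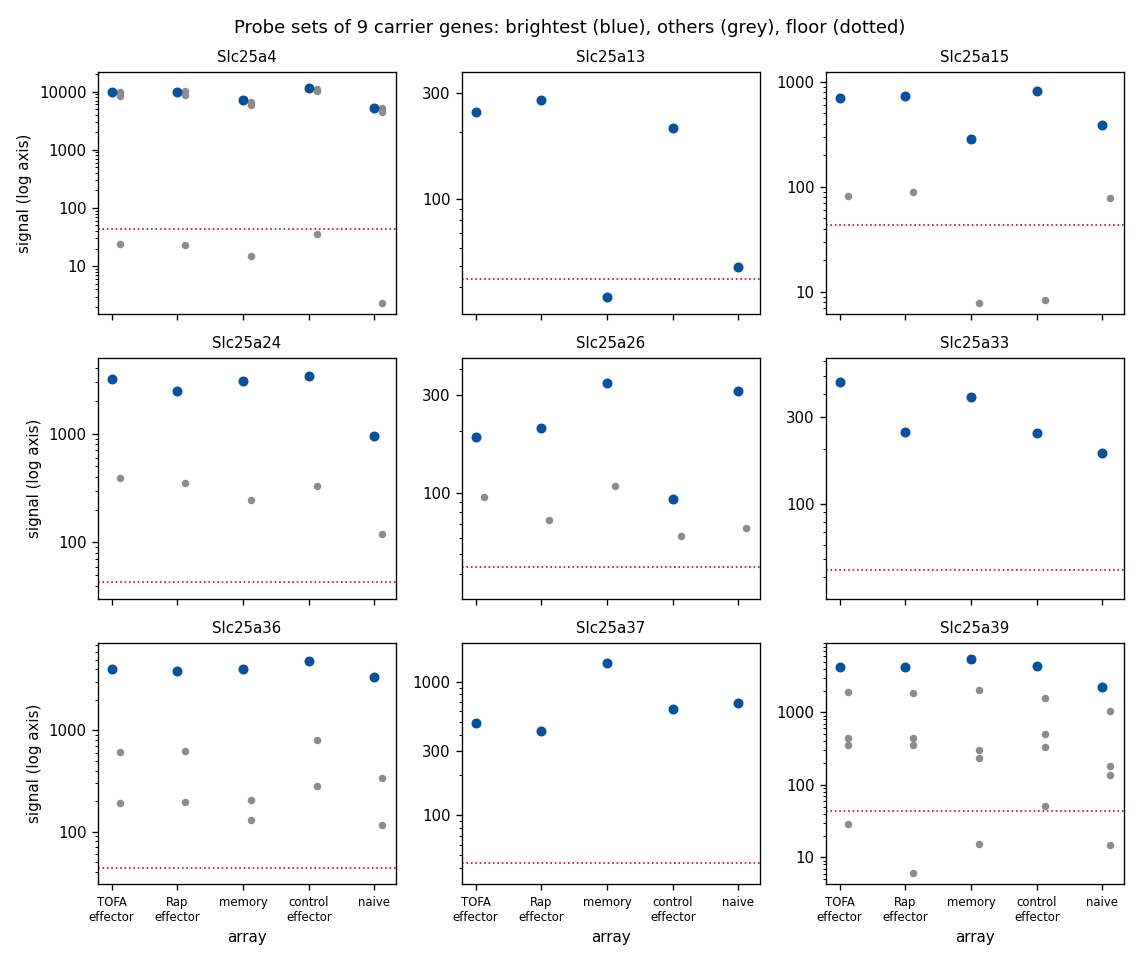
Signal (log axis) of each probe set of 9 carrier genes on the 5 arrays, with the brightest probe set in blue, others in grey and the floor of 43.4 dotted. The dimmer probe set of Slc25a15 was at 8.37 in control effector and 78.8 in naive cells, opposite in direction to the brighter one, at 813 and 386.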

How the data were processed

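Total RNA of 5 samples had been labelled with biotin and hybridised to Affymetrix mouse arrays. The submitters' processing notes name GCOS and Affymetrix Expression Console as the software behind the signals; no version or algorithm is given in the sources used here. Each probe set has a deposited intensity on a linear scale, and the mean of these after trimming 2% at each end was 500.003 on every array. Array medians of the deposited signals ran from 63.1 to 99.5, a range of 0.66 on the log2 scale. After 64 control probe sets were set aside, the arrays were therefore quantile normalized with numpy 2.4.6 and pandas 2.3.3, signals under the 40th percentile (43.4) were raised to it, and log2 was taken. Each gene was represented by its brightest probe set, by mean log2 signal over the arrays.

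With 1 array a group no test was made. A difference was called at 2-fold, and where 1 of the 2 arrays was under the floor the fold is a lower bound. The number of arrays limits the precision. Carriers were named in full where they passed 2-fold in any comparison with a signal on the higher array reaching the 60th percentile (150), which 12 did; Slc25a35 and Slc25a47, past 2-fold at lower signals, and further carriers were named after their values were seen. The carriers, the lists of other genes and the cell markers were chosen with earlier results of these data known. The calculation was tested on simulated data. The alternatives tried used signals without quantile normalization, a floor at the 20th or the 60th percentile, a constant in place of the floor, the mean of all probe sets, a table without the probe sets that may match several transcripts, and limits of 1.5-fold and 3-fold. Promoter windows came from RefSeq (GRCm38.p6), and protein sequences were not used here.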

Additional observations from a re-analysis of the deposited data

How the results depend on the processing

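No paired analysis was possible because each group has 1 array. Over the 6 settings that change the signals and the main one, the carriers' median log2 difference lay between -0.09 and 0.05 for TOFA and between -0.04 and 0.0029 for Rap against control effector, between -0.01 and 0.07 for TOFA against Rap, between -0.23 and -0.07 for control effector and between -0.14 and 0.11 for memory against naive, and between -0.16 and -0.04 for memory against control effector cells. Of 22 calls at 2-fold, 5 were kept in every alternative that gave a value and 17 were lost in some. Counts of carriers are given here where they moved by over 1.5 times. With the values as deposited, 0 were higher in TOFA against control effector cells and 1 lower in memory against naive cells. With the floor at the 20th percentile, 4 were higher and 1 lower in TOFA against control effector, 2 higher in Rap against control effector, 1 higher and 1 lower in TOFA against Rap, 5 lower in control effector against naive and 5 lower in memory against naive cells. With the floor at the 60th percentile, 0 were higher in TOFA and 0 in Rap against control effector, 1 lower in control effector and 0 in memory against naive, and 1 lower in memory against control effector cells. With the mean of all probe sets, 2 were higher in TOFA and 2 in Rap against control effector, and 1 in TOFA against Rap cells. Without probe sets that can match several transcripts, 0 were higher in TOFA and 0 in Rap against control effector cells. With a constant in place of the floor, 0 were higher in TOFA and 0 in Rap against control effector, 1 lower in control effector and 1 in memory against naive, and 3 higher in memory against control effector cells. At 3-fold, 0 were higher in TOFA and 0 in Rap against control effector, 2 higher and 1 lower in control effector against naive, 1 higher and 0 lower in memory against naive, and 1 higher and 1 lower in memory against control effector cells. At 1.5-fold, 3 were higher in TOFA and 3 in Rap against control effector, 1 higher and 1 lower in TOFA against Rap, 7 higher and 7 lower in control effector against naive, 6 higher and 7 lower in memory against naive, and 10 lower in memory against control effector cells. With the mean of all probe sets Slc25a15 reversed, with log2 differences of 1.54 in TOFA and 1.63 in Rap against control effector and -1.08 in control effector against naive cells, since its dimmer probe set, at 8.37 in control effector cells, then counts equally. Carriers with signals near the floor gave bounds only.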
